A study of Mus musculus with 3 samples.

Results

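Pparg, which encodes the nuclear receptor PPARγ, and 9 genes of fatty acid uptake, binding, storage and release were described in type 2 innate lymphoid cells (ILC2s) of the mouse lung. The 10 genes were chosen by name and function, with earlier results of these data known but by no rule on their values, from 16129 genes in the expression table, and all 10 were found there. The data were 3 RNA sequencing libraries of 1 group, numbered 1 to 3. All came from ILC2s sorted by flow cytometry from digested lungs of wild type mice that had been given IL-33, a danger signal released by epithelium to which ILC2s respond. The sources used here do not give the antibodies and gates, the dose and time of IL-33 or the age of the mice. No untreated cells were analysed here, so all values describe cells exposed to IL-33 and say nothing of its effect. The labels do not say whether each library is a separate animal or pool, so differences between libraries may be technical.

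Levels are given as TPM, the transcript abundance unit corrected for transcript length, as mean ± SD over n = 3 libraries. The libraries held 19883728 to 19976129 estimated reads each. Detection means 1 TPM or more in every library. The sort was checked against marker genes. All 13 ILC2 core markers, led by Arg1, Id2, Il1rl1 and Il13, averaged 100 TPM or more, against 10.3% of all listed genes. Some markers of other lung cells were present as well. The summed level of 19 alveolar macrophage markers was 407 to 570 TPM, most of it from Chil3 (375 ± 74.7), whose mean was above those of the ILC2 markers Klrg1, Gata3, Il5, Rora and Il2ra, named here after their values were seen. Those of 10 endothelial, 10 alveolar type 2 and 8 T cell markers were 4.09 to 5.29, 43.8 to 44.6 and 8.88 to 13.2 TPM.

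PPARγ binds DNA together with a retinoid X receptor (RXR), is activated by fatty acids and their derivatives, and is best known as the regulator of fat cell formation and lipid storage. It is also expressed in alveolar macrophages and in ILC2s. Cells take up fatty acids partly through the surface protein CD36, carry them in the cytosol on binding proteins such as FABP5, and join them to glycerol as triglycerides, whose last step is catalysed by DGAT1 or DGAT2. Triglycerides are stored in lipid droplets coated by perilipins, and fatty acids are released again by lipases, of which ATGL, encoded by Pnpla2, acts first and hormone-sensitive lipase, encoded by Lipe, next.

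All 10 genes were detected, against 67.3% of all listed genes, and 4 of them averaged 100 TPM or more, against 10.3% of all listed genes. The median of their means was 59.8 TPM, and that of all listed genes was 11.2 TPM. Pparg stood highest at 189 ± 4.99 TPM, followed by the droplet coat gene Plin2 at 183 ± 6.49, the lipase inhibitor gene Hilpda at 143 ± 3.86 and Dgat1 at 118 ± 9.61. Fabp5 (63.6 ± 5.49) and Pnpla2 (56.1 ± 1.37) formed a middle group, above Plin3 (26.0 ± 0.904). Lipe (12.1 ± 0.906), Dgat2 (11.3 ± 1.19) and Cd36 (4.31 ± 1.02) were lowest. In rank among all listed genes, Pparg lay at percentile 95.3 and Cd36 at percentile 40.4. Of the 9 neighbouring pairs in this order, 2 had overlapping ranges. Pparg and Plin2 overlapped between libraries, although Pparg was the higher in 3 of 3 libraries. Lipe and Dgat2 overlapped and kept their order in 2 of 3 libraries.

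**Figure D1:**
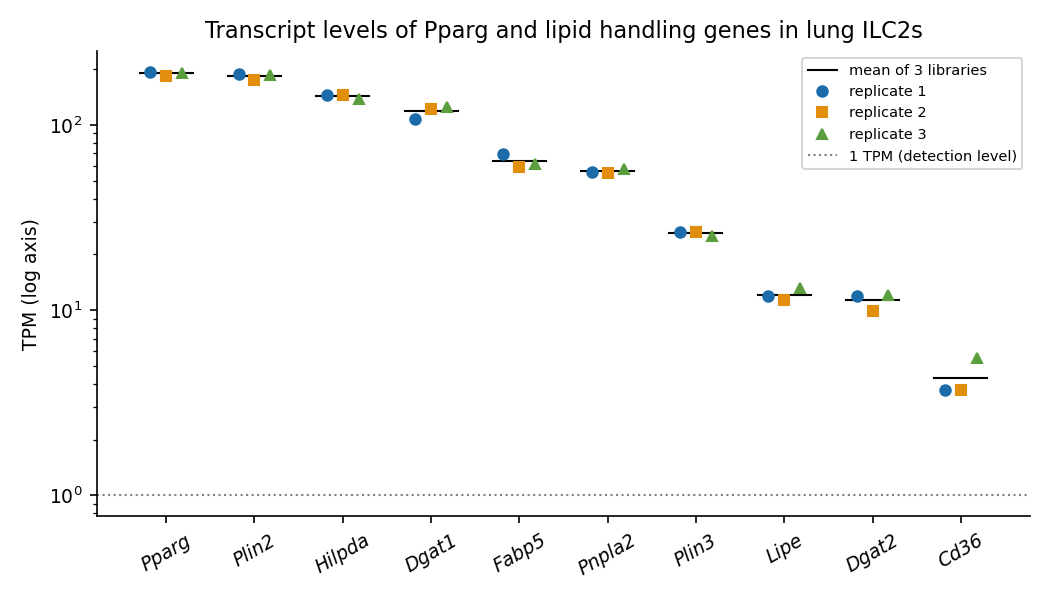
TPM of the 10 genes (log axis) in each of the 3 libraries (symbols), with their mean (line) and the detection level of 1 TPM (dotted). Pparg and Plin2 share the top near 189 and 183 TPM, and Cd36 is lowest, with replicate 3 above the other libraries.

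Related genes were then compared within each library, since the design has a single group. Of 10 pairs set for this, 9 could be run, and the pair with Ppara was not analysed here. Each of the 9 differences had the same direction in 3 of 3 libraries. For each, an exact permutation test that flips the signs of the 3 differences (two-sided) gave p = 0.25, the lowest value possible with 3 libraries, and 0.25 after Benjamini-Hochberg adjustment over the 9 pairs. The differences below are therefore read against their SD between libraries. They are on the log2(TPM + 1) scale, which understates ratios of low genes.

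**Figure D2:**
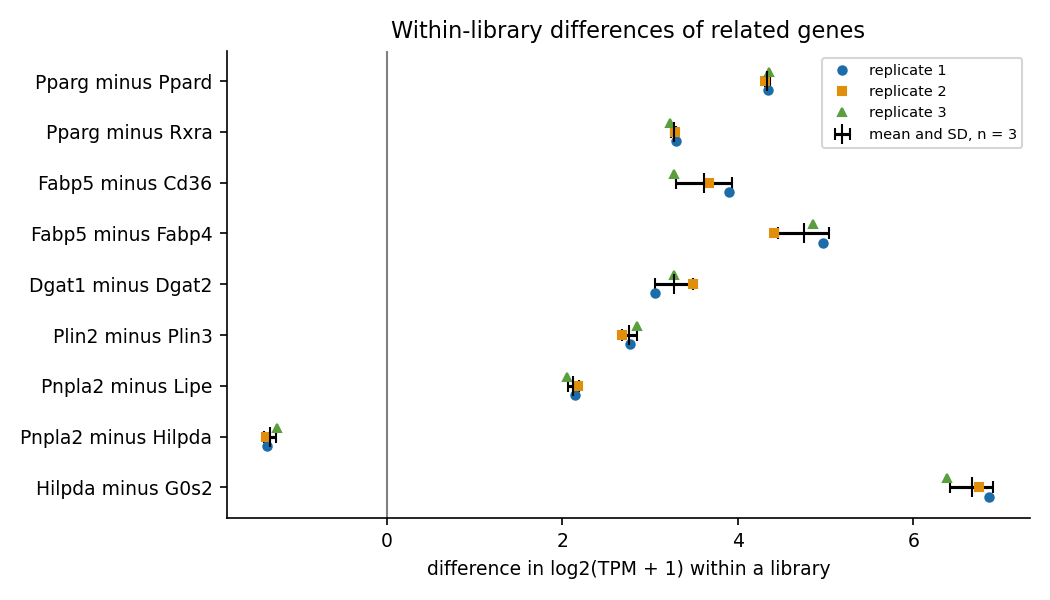
Difference in log2(TPM + 1) between the first and the second gene of each pair, per library (symbols), with mean and SD (n = 3). In every pair the 3 libraries lie on the same side of 0, from -1.33 for Pnpla2 minus Hilpda to 6.67 for Hilpda minus G0s2 on average.

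Pparg (Entrez gene 19016, chromosome 6 from 115360879 to 115490404 in GRCm38.p6) was the dominant receptor gene of its family among those analysed. It stood at 193, 183.5 and 191 TPM in replicates 1, 2 and 3, from 3423, 3199 and 3311 estimated reads. The 3 libraries lay close together, with a coefficient of variation of 2.64%, or 0.626% without replicate 2, where counting alone gives 1.74% at this number of reads. Ppard, which encodes the broadly expressed relative PPARδ, stood at 8.51, 8.30 and 8.38 TPM. Pparg exceeded Ppard by 4.34 ± 0.025 (22.5-fold as a ratio of mean TPM). Among the partner receptors, Rxrb was highest at 60.7 ± 1.59 TPM and Rxra stood at 18.7 ± 0.75 TPM. Pparg exceeded Rxra by 3.27 ± 0.034 (10.1-fold as a ratio of mean TPM). The receptor gene was above Rxra and Rxrb in each library. Of 5 receptor genes analysed 4 were detected, or 80.0%, against 67.3% of all listed genes. The remaining gene, Rxrg, named here after its values were seen, was at 1.05, 0.86 and 0.65 TPM.

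Coregulators, the proteins that nuclear receptors recruit to activate or repress transcription, were detected in 10 of 11 cases, or 90.9%, against 67.3% of all listed genes. The corepressor gene Ncor1 led at 253 ± 7.49 TPM, and the coactivator genes Ncoa3 (68.6 ± 2.06) and Ncoa2 (59.5 ± 3.64) and the corepressor gene Nrip1 (58.6 ± 2.04) followed. Ppargc1a, the coactivator PGC-1α of mitochondrial biogenesis, had 0, 1.8 and 3.69 estimated reads in replicates 1, 2 and 3. The count of 0 in replicate 1 allows up to 3 reads, which is 0.037 TPM for this gene, and this limit covers counting error only.

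Textbook PPARγ target genes did not stand at a common level. Of 13 analysed, 11 were detected, or 84.6%, against 67.3% of all listed genes. A mean of 100 TPM or more was reached by 3 of the 13, and by 10.3% of all listed genes. They were Ucp2, a mitochondrial carrier (1374 ± 55.4), Plin2, and Cpt1a, the carnitine transferase that admits fatty acids to mitochondria (134 ± 3.30). Fabp5 followed. Others lay far lower, among them Cd36 and the fat cell binding protein gene Fabp4, which had 7 to 11 estimated reads per library. Nr1h3, the oxysterol receptor LXRα, was below 1 TPM in all libraries at 0.547 ± 0.184. The median of the 13 genes was 7.94 TPM, below the 11.2 TPM of all listed genes. A further 8 of the 21 genes of this list, including the fat cell genes Adipoq, Plin1, Plin4 and Cidec, were not analysed here.

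**Figure D3:**
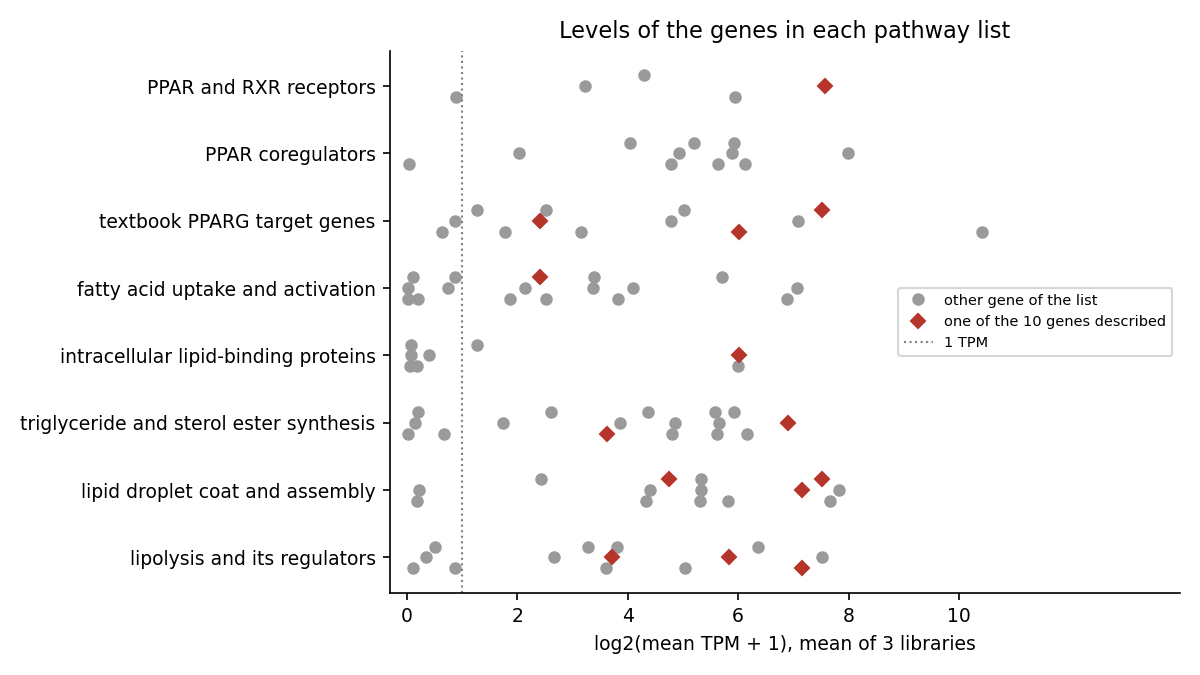
Mean level of each gene of the 8 pathway lists as log2(mean TPM + 1), with the 10 genes described here as red diamonds and the other genes as grey circles; the dotted line is 1 TPM. Pparg lies at the right of its list, while Cd36 lies to the left of several genes of uptake and activation.

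Fatty acid entry showed a low level of Cd36 beside high levels of other uptake genes. Cd36 (12491, chromosome 5 from 17781690 to 17888959) stood at 3.72, 3.72 and 5.49 TPM in replicates 1, 2 and 3. Replicate 3 was the high library, and without it the mean was 3.72 TPM. The values rest on 99, 99 and 140 estimated reads, with exact 95% Poisson intervals of 80.5 to 121, 80.5 to 121 and 118 to 165, which overlap and cover counting error only. Of 17 genes of uptake and activation analysed, 11 were detected, or 64.7%, near the 67.3% of all listed genes. The acyl-CoA synthetase gene Acsl5, whose product activates fatty acids after entry, led at 133 ± 1.29 TPM. Slc27a6, a fatty acid transport protein gene, followed at 120, 119 and 110 TPM, above Acsl4 (51.5 ± 1.25) and the transporter gene Slc27a4 (16.1 ± 0.82). In each library the level of Slc27a6 was above that of Cd36 by a wide margin, and the ranges did not overlap. Slc27a2 and Slc27a3, of the same transporter family, were below 1 TPM in all libraries.

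Fabp5 (16592, chromosome 3 from 10012585 to 10016610) was the main cytosolic fatty acid-binding protein gene among those analysed. It stood at 69.7, 59.2 and 61.8 TPM, with replicate 1 the highest. Its coefficient of variation of 8.64% was 2.02 times the counting error, and without replicate 1 it was 3.02%, below the counting error of 4.27%. Fabp5 exceeded Fabp4 by 4.75 ± 0.295 and Cd36 by 3.62 ± 0.319. Dbi, the acyl-CoA-binding protein gene, was at a similar level of 63.0 ± 1.31 TPM. Of 8 lipid-binding protein genes analysed, 3 were detected, namely Fabp5, Dbi and Fabp4, or 37.5%, against 67.3% of all listed genes. Crabp2, Fabp12 and Fabp2 had at most 4 estimated reads per library. Of the 50-base words in Fabp5 transcripts, 5.48% also occur in 5 other annotated genes, Fabp5l2 among them, so a part of its reads cannot be assigned with certainty.

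In triglyceride synthesis, the levels of the acyltransferase genes were far apart. Dgat1 (13350, chromosome 15 from 76502012 to 76512021) stood at 107, 122 and 125 TPM, and Dgat2 (67800, chromosome 7 from 99153663 to 99182713) at 11.9, 9.92 and 12.0 TPM. Dgat1 was lowest in replicate 1 and Dgat2 in replicate 2, and the ranges of the genes did not overlap. Dgat1 exceeded Dgat2 by 3.28 ± 0.216 (10.5-fold as a ratio of mean TPM). Both enzymes catalyse the same final step but are unrelated in sequence, and DGAT1 also esterifies retinol. The spread of Dgat1 was 3.82 times its counting error, the most among the 10 genes. It rested on replicate 1, without which the coefficient of variation was 1.74% in place of 8.13%, below the counting error of 2.13%. Of the 17 analysed genes of triglyceride and sterol ester synthesis, Dgat1 and Dgat2 included, 13 were detected, or 76.5%, near the 67.3% of all listed genes. After Dgat1, the lysophosphatidic acid acyltransferase genes Agpat4 (70.4 ± 3.28) and Agpat1 (59.6 ± 3.32) and the cholesterol esterifying enzyme gene Soat1 (49.2 ± 0.991) were highest. Gpat2, Gpat3 and Lpin3 were each below 1 TPM in all libraries.

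On the droplet surface, Plin2 was well above Plin3. Plin2 (11520, chromosome 4 from 86626910 to 86670217), a perilipin that is stable on droplets, stood at 187, 175 and 186 TPM. Plin3 (66905, chromosome 17 from 56278962 to 56290511), a perilipin that moves between cytosol and young droplets, stood at 26.5, 26.5 and 24.9 TPM. The ranges did not overlap, and Plin2 exceeded Plin3 by 2.77 ± 0.086 (7.04-fold as a ratio of mean TPM). Plin1, Plin4 and Plin5 were not analysed here. Of 14 genes of droplet coat and assembly analysed, 12 were detected, or 85.7%, against 67.3% of all listed genes. A mean of 100 TPM or more was reached by 4 of them, and by 10.3% of all listed genes. Aup1, whose product sits on droplets and the endoplasmic reticulum (227 ± 7.82), and Bscl2, which encodes the droplet assembly protein seipin (201 ± 7.94), stood above Plin2 and Hilpda. Cideb and Hsd17b13 had at most 3.19 estimated reads in any library.

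The release gene Pnpla2 lay between the storage genes in every library, below Plin2 and Dgat1 and above Plin3 and Dgat2. Pnpla2 (66853, chromosome 7 from 141455188 to 141460743) stood at 55.9, 54.8 and 57.5 TPM, and Lipe (16890, chromosome 7 from 25379527 to 25398486) at 11.9, 11.3 and 13.1 TPM. Pnpla2 exceeded Lipe by 2.13 ± 0.064 (4.64-fold as a ratio of mean TPM), with no overlap. Hilpda (69573, chromosome 6 from 29272488 to 29275449), a small protein induced by hypoxia and fatty acids that inhibits ATGL, stood at 145, 144 and 138 TPM. Pnpla2 was below Hilpda by 1.33 on the log2(TPM + 1) scale (difference -1.33 ± 0.071), again without overlap. The reads of this pair were nearly equal in number, 1393, 1349 and 1413 for Pnpla2 and 1312, 1283 and 1227 for Hilpda. Their TPM differ because the effective transcript length implied by the table was 2586 bases for Pnpla2 and 935 bases for Hilpda in replicate 1.

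The other known inhibitor of ATGL differed from Hilpda in level. G0s2 had 2, 2.66 and 5 estimated reads in replicates 1, 2 and 3, or 0.26, 0.35 and 0.66 TPM, too few for a stable ratio. Hilpda exceeded it by 6.67 ± 0.246 on the log2(TPM + 1) scale. Of the 14 genes of lipolysis and its regulators, 10 were detected, or 71.4%, near the 67.3% of all listed genes. The subunit genes of protein kinase A, which stimulates lipolysis, stood at 182 ± 4.82 (Prkacb) and 81.2 ± 2.56 (Prkaca) TPM. Aqp7, a glycerol channel, and Pnpla3 were below 1 TPM in all libraries.

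The spread between libraries was above 5% for Cd36, Dgat2, Fabp5, Dgat1 and Lipe. The share of all detected genes above 5% was not counted. The median coefficient of variation was 5.52%, beside 4.49% for all detected genes. The coefficient of variation was below the counting error for Plin3, Pnpla2 and Hilpda. Its median ratio to the counting error was 1.57 for the 10 genes, beside 1.21 for all detected genes. Cd36 varied most, by 23.7%, which was 2.52 times its counting error and came from replicate 3 alone, since replicates 1 and 2 had equal TPM. In replicate 3 Cd36 was at 1.48 times its mean in the other libraries, and it was the only gene of the 10 past 1.3 times, a ratio that 1.5% of all detected genes passed. The other 9 genes had ratios between 0.941 (Plin3) and 1.13 (Lipe), with 1.02 for Pparg and 1.03 for Plin2.

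Alveolar macrophage markers moved in the same direction as Cd36. Of the 13 detected markers, 10 were at least 1.3 times as high in replicate 3, against 1.5% of all detected genes. Their median ratio was 1.40, with a range from 0.756 (Fabp4) to 1.63. Earlier results of these data had shown macrophage genes higher in replicate 3, so this outcome was known beforehand and is a description only. The summed level of the 19 analysed markers was 415, 407 and 570 TPM in replicates 1, 2 and 3. Among the 6 not detected in every library, 4 were below 1 TPM in all libraries: Adgre1, Car4, Mertk and Siglecf. Siglecf, named here after its values were seen, stood at 0.44, 0.26 and 0.45 TPM. Marco, Krt79 and Fabp1 of this list were not analysed here. Chil3 led, followed by Lyz2 at 39.1 ± 6.98 TPM. The summed level of 8 T cell markers was 1.41 times as high in replicate 3, but most of it came from Cd3e (6.09, 6.48 and 8.99 TPM). Of these 8 markers only Cd3e and Cd3d were detected, and 5 were below 1 TPM in all libraries. The ratio of Cd3d was 1.13, and that of Cd8a, which was not detected in every library, was 1.77. Of the 5 below 1 TPM, all with few reads, Cd4, Cd8b1 and Foxp3 had ratios above 1. Those of Cd5 and Cd6 were below 1. The 13 ILC2 core markers had ratios from 0.965 to 1.04. Alveolar macrophages are also known to express Pparg, Fabp5 and Plin2, whose ratios were within 0.958 to 1.03. These genes averaged 63.6 to 189 TPM, so their ratios cannot show a rise in TPM as small as that of Cd36. No conclusion on macrophage RNA is drawn from them. The part of macrophage RNA in the level of Cd36 was not tested, and in bulk libraries more cells of a type and more RNA per cell cannot be told apart.

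**Figure D4:**
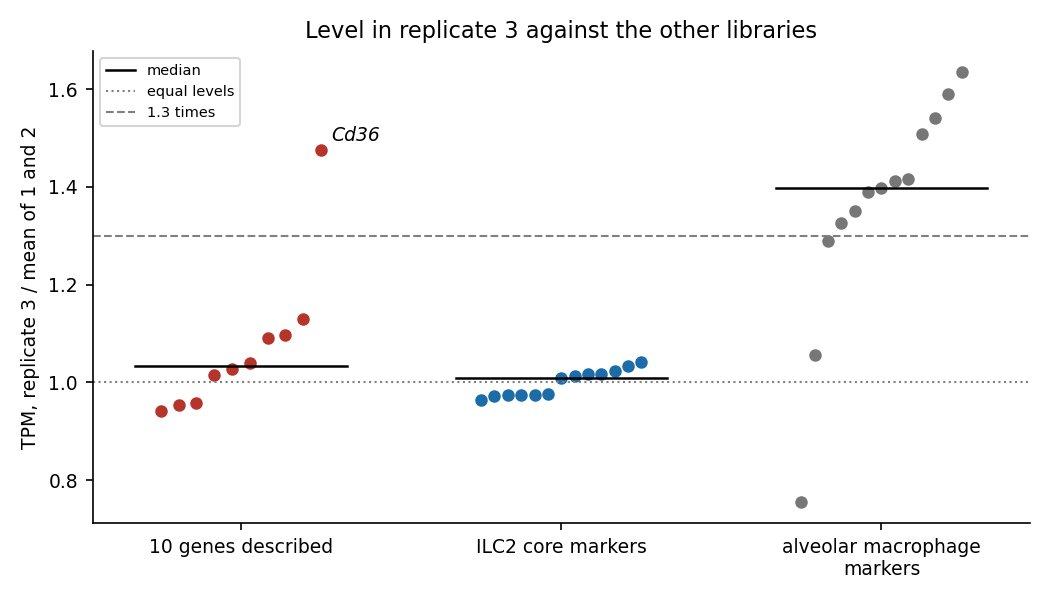
TPM in replicate 3 divided by the mean of replicates 1 and 2 for the 10 genes, the 13 ILC2 core markers and the 13 detected alveolar macrophage markers (1 point per gene, line at the median). Cd36, at 1.48, lies among the macrophage markers, and the other 9 genes lie between 0.941 and 1.13. The rise of macrophage genes in replicate 3 was known from earlier results of these data.

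Promoter sequences from RefSeq (GRCm38.p6), 250 bases before to 50 after a start site, were found for 7 of the 10 genes in 11 windows: 3 for Pparg, 2 each for Lipe and Hilpda and 1 each for Cd36, Plin2, Plin3 and Pnpla2. They were searched on both strands for AGGTCA, the hexamer that nuclear receptors bind, for its direct repeat AGGTCANAGGTCA, the arrangement bound by PPARγ with RXR, and for ACGTG, the core bound by hypoxia-inducible factors. AGGTCA also lies within the direct repeat. The direct repeat was in 0 of the 11 windows and in 0.0396% of all 32851 windows. AGGTCA was in 4 of 11 windows, of Pparg, Cd36 and Plin2, and in 16.3% of all windows. ACGTG was in 3 of 11 windows, of Plin2, Lipe and Hilpda, and in 19.6% of all. A match is a description of the letters and not a binding site. The stretches of 30 bases around the AGGTCA matches are shown because they lie at the receptor gene itself and at a high (Plin2) and a low (Cd36) textbook target. Capitals mark the hexamer, read as TGACCT where the match is on the opposite strand.
Pparg, chr6:115361104-115361133, plus strand: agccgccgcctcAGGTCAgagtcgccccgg
Pparg, chr6:115362328-115362357, plus strand: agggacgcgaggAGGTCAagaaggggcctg
Cd36, chr5:17836107-17836136, minus strand: ctctgcactttaTGACCTgagattttcagg
Plin2, chr4:86670260-86670289, minus strand: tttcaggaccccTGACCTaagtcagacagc
The hexamer began 28 and 9 bases before the start site in the Pparg windows, 228 bases before it in Cd36 and 218 bases before it in Plin2. For the hypoxia core, the stretches of Plin2, where the match spans the start site, of Lipe and of Hilpda follow, with ACGTG in capitals.
Plin2, chr4:86670046-86670075, minus strand: cagctgggctatcACGTGgctcggaggctt
Lipe, chr7:25396125-25396154, minus strand: aacagggacgaccACGTGagggggcggagg
Hilpda, chr6:29272570-29272599, plus strand: ggatggccagcggACGTGccccagggcgag

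The upstream bases of Hilpda and Pnpla2 are shown for the inhibitor and the lipase whose levels were compared above. Each stretch is the 250 bases that end just before the outermost RefSeq start of the gene. Capitals mark matches to the GC box GGGCGG on either strand, which was in 9 of the 11 windows of these genes and in 35.7% of all windows.
Hilpda, chr6:29272238-29272487, plus strand: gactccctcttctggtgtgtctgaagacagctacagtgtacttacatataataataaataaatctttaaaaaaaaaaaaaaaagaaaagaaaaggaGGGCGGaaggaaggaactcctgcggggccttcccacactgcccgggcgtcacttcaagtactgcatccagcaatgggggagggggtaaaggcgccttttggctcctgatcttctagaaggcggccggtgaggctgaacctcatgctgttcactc
Pnpla2, chr7:141454938-141455187, plus strand: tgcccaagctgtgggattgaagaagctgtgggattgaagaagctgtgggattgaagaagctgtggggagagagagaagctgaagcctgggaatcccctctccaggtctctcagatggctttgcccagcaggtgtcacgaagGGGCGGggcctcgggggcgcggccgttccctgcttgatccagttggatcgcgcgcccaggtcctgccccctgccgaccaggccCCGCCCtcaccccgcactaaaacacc
The Hilpda stretch held 1 match and the Pnpla2 stretch 2, and levels within these libraries are not a test of either promoter.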

How the data were processed

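RNA from 3 libraries of sorted lung ILC2s was analysed. Bowtie2, RSEM 1.3.1 and the build GRCm38.p6 are named in the submitters' processing notes, without order or settings. The sources used here name no annotation. Per the file headers, the authors deposited TPM, FPKM, expected counts, estimated per gene without depth scaling, and normalised read counts, a depth-scaled signal that was not used. TPM gave all levels. FPKM was an alternative and, with the expected counts, gave effective lengths. Expected counts gave depth and counting error (100 divided by the square root of the mean count, in percent), and were rounded for edgeR 4.0.16 (TMM) and DESeq2 1.42.0 scaling, which served only as alternatives for the spread. No count test was possible with 1 group.

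Pairs were compared as log2(TPM + 1) with sign-flip tests in Python 3.11.15. The share of 50-base words in other genes came from GENCODE M21 transcripts. Coordinates and promoters are from RefSeq (GRCm38.p6), matched by Entrez ID. The ratio program was tested on simulated data. The members and lists were chosen with earlier results of these data known, and the 1.3 ratio was set after the values were seen. Named genes are the 10 members, the genes of the pairs, up to 4 highest and 3 below 1 TPM (alphabetical) of each list, and the 3 genes nearest to Pparg.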

Additional observations from a re-analysis of the deposited data

How the results depend on the processing

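The 9 pair differences kept their direction under a pseudocount of 0.1, with FPKM and without each replicate. With 2 libraries the sign-flip test cannot give a p below 0.5. The difference that moved most was Hilpda minus G0s2, from 5.85 to 8.16. A detection level of 5 TPM left 9 of the 10 members detected, all but Cd36. It left 77 of the 103 genes detected in the pathway and marker lists, which include the 10 members. The median of the 10 mean levels was 58.3 to 61.2 TPM when each replicate was left out. The median coefficient of variation was 5.52% with TPM, 4.57% with both TMM and DESeq2 scaling, and 3.44% to 3.94% when each replicate was left out. Each of the 10 genes had a library without which its coefficient of variation changed by more than the spread of the 3 such values. With 3 values, leaving out the one farthest from the others lowers the spread by arithmetic, so no cause was read from this and none was tested. Against detected genes only, the percentiles of all 10 members were lower by construction, 93.0 for Pparg and 11.4 for Cd36. No paired analysis was possible because there is a single group. Depth limits statements on genes with few reads, such as Fabp4, G0s2 and Ppargc1a.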

Other observations

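The 3 genes whose log2(TPM + 1) values over the 3 libraries lay nearest to Pparg were Ppp6r1, Lsm14a and Rnf166, at Euclidean distances of 0.0327, 0.0347 and 0.0355. Ppp6r1 stood at 194, 184 and 187 TPM in replicates 1, 2 and 3. With 3 libraries of 1 group, this likeness describes a shared level only. Plin2, at a distance of 0.0872, was farther than these genes.

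Over the 8 pathway lists, the 10 members included, 68 of 91 analysed genes were detected, and 19 genes of the lists were not analysed here. By list, the share detected was 90.9% for coregulators, 85.7% for droplet coat and assembly, 84.6% for textbook targets, 80.0% for PPAR and RXR receptors, 76.5% for triglyceride and sterol ester synthesis, 71.4% for lipolysis, 64.7% for uptake and activation and 37.5% for lipid-binding proteins, against 67.3% of all listed genes.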
